A study of Homo sapiens with 3 samples.

Results

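The immediate early and AP-1 genes described here are *EGR1*, *FOS*, *FOSB*, *FOSL1*, *FOSL2*, *JUN*, *JUNB*, *JUND*, *IER2* and *IER3*. The set was chosen by gene name, with earlier results of these data known. These genes are 10 of the 12031 genes that had a named probe passing the filters, and their 11 probes all passed. Expression was measured in HCT116, an established human colon cancer cell line, after 48 h with a control siRNA, with siRNA #7 or with siRNA #8. Both targeting siRNAs were designed against *HOXA5* short RNA, a transcript from the *HOXA5* locus, and the cells carried no other stated change. Each condition was represented by 1 one-color Agilent array hybridized with cRNA made from 400 ng of total RNA, and the 3 arrays lay on 1 slide. The comparison asks which genes differ in level when *HOXA5* short RNA is silenced.

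Immediate early genes are switched on within minutes of a growth factor or stress signal, without new protein synthesis, and their mRNAs are usually short-lived. In epithelial cells the epidermal growth factor receptor reaches them through the Ras, MEK and ERK kinases, which activate the ternary complex factors bound with serum response factor (SRF) at CArG boxes. Their products include the zinc finger factor EGR1 and the FOS and JUN proteins, which pair through leucine zippers to form the transcription factor AP-1. JUN proteins can pair with one another, whereas FOS proteins need a JUN partner.

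The agents that define the groups overlap in sequence. The siRNAs are printed here 5′ to 3′ as the study's materials list them, because siRNA #7 and siRNA #8 are not independent designs, and the capitals mark the run of 17 bases that both of these 21-base sequences hold.
siRNA #7: gagaAACUGAAAGACAACAUA
siRNA #8: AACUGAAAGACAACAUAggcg
The shared run starts at base 5 of siRNA #7 and at base 1 of siRNA #8, so siRNA #8 is siRNA #7 moved along the target. The control siRNA sequence was not used here.

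The promoters of 8 of the 10 genes were matched by symbol in a RefSeq table of GRCh38.p14, as windows of 300 bases that hold 250 bases before the start of the gene. *FOSL1* and *IER3* had no entry. The stretches of 150 bases just before the start are shown for *EGR1*, *JUN* and *FOS*, which are among the genes below control with both siRNAs, and for *FOSB*, whose level was above control with both. *JUNB* was also above control with both. With siRNA #8 the differences of *FOSB* and *JUNB* lay within the spot-to-spot error given below. Capitals mark matches to a CArG box (CC, then 6 bases that are each A or T, then GG), to TGACG on either strand, which is the core of the cyclic AMP response element, and to the AP-1-like site TGACATCA.
EGR1, chr5:138465329-138465478, plus strand: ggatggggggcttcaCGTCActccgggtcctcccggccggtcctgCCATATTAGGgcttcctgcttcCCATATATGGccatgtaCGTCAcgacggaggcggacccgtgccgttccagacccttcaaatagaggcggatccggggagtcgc
JUN, chr1:58784048-58784197, minus strand: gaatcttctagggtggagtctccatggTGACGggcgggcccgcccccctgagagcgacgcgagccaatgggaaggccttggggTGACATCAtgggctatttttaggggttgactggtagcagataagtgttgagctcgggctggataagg
FOS, chr14:75278678-75278827, plus strand: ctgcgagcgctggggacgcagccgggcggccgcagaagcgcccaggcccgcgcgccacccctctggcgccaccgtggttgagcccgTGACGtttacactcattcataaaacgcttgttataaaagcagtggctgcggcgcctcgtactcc
FOSB, chr19:45467846-45467995, plus strand: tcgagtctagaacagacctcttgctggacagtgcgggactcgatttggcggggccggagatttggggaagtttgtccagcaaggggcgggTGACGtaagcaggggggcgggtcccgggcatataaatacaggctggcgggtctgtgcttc

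In the 300-base windows, a CArG box was found in 1 of the 8 promoters, that of *EGR1*, and in 1.29% of all 35116 RefSeq promoters of the same length. Sites more than 250 bases before the start, and CArG boxes with a mismatch, were not searched for. The other genes may therefore hold CArG boxes that this search could not find. The *EGR1* matches were CCATATTAGG, from -105 to -96 before the start, and CCATATATGG, from -83 to -74. TGACG was found on either strand in all 8 windows and in 24.6% of all promoters. The full palindrome TGACGTCA, which contains TGACG on both strands, was found in the *JUND* window and in 1.85% of all promoters. TGACATCA was found in the *JUN* window, from -67 to -60, and in 2.61% of all promoters. The AP-1 site TGANTCA was found in the *FOSL2* window and in 7.71% of all promoters, and TATAAA in the windows of *FOS*, *JUNB* and *FOSB* and in 11.5% of all promoters, both counted on either strand. A match describes these letters only, and no binding was measured in these cells.

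Of the 50599 gene probes on an array, 19073 to 20475 were well above background, and no spot was saturated. The level of a gene is the background-subtracted intensity of its brightest passing probe divided by the 75th percentile of its array, which was an intensity of 52.8 for control siRNA, 42.1 for siRNA #7 and 42.8 for siRNA #8. A level of 1 is therefore a spot as bright as that percentile. Probes differ in how well they bind, so levels are compared between arrays for the same gene and never between genes. The probe of *HOXA5* differed from control siRNA by log2 ratios of -0.36 ± 0.25 (siRNA #7) and -0.23 ± 0.26 (siRNA #8), and whether it separates the short RNA from the coding mRNA was not tested. Of 8 markers of colon epithelial lines 6 passed the background filter, among them *EPCAM* and *CDH1*, while *VIL1* and *LGALS4* were called well above it on none of the 3 arrays. Of the markers of other cell types, none of 4 leukocyte and none of 4 endothelial genes on the array passed, 1 of 5 fibroblast genes did (*COL1A1*) and 1 of 3 hepatocyte genes did (*APOA1*). Passing required all 3 arrays, and some of the others were well above background on part of them. The leukocyte gene *CD14* was so on the control siRNA and siRNA #8 arrays, and a probe of the endothelial gene *VWF* on the siRNA #7 and siRNA #8 arrays.

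The error given with a value is the spot-to-spot standard deviation (SD) on the log2 scale, taken from the probes that the array prints 10 times, of which 604 to 620 served per array, at a like brightness. It leaves out the spread between cultures, which 1 array per condition cannot give. The differences below carry no test, and the words higher and lower describe these arrays.

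With siRNA #7, *EGR1*, *JUN*, *IER3*, *FOSL2*, *FOS* and *IER2* were lower than with control siRNA and *FOSB*, *FOSL1*, *JUND* and *JUNB* were higher, which makes 6 of 10 lower beside 48.5% of all genes. The median log2 ratio of the set was -0.33, and that of all genes was 0.014. None of the 10 passed 2-fold in either direction, beside 1.72% of all genes at least 2-fold lower and 2.04% at least 2-fold higher. At 1.5-fold, *EGR1* and *JUN* were lower, beside 6.93% of all genes, and *FOSB* was higher, beside 7.56%. A ratio beyond 2 spot-to-spot SD was seen for 7 of the 10, all but *FOS*, *FOSL2* and *JUNB*, and for 29.8% of all genes.

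With siRNA #8, 8 of the 10 genes were lower than with control siRNA, all but *FOSB* and *JUNB*, beside 49.2% of all genes. The median log2 ratio was -0.36, and that of all genes was 0.0072. *EGR1* and *IER3* were at least 2-fold lower, which is 2 of 10 beside 3.03% of all genes, and none was at least 2-fold higher, beside 1.95%. At 1.5-fold *JUN* joined them, which gives 3 of 10 lower beside 10.3% of all genes and 0 higher beside 7.79%. Only *EGR1*, *JUN*, *IER2* and *IER3* had ratios beyond 2 spot-to-spot SD, which 31.4% of all genes had. Both comparisons use the same control array, so a deviation of that array would enter both. The RNA came from whole cultures, so that fewer cells expressing a gene and less of its RNA per cell cannot be told apart.

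**Figure D1:**
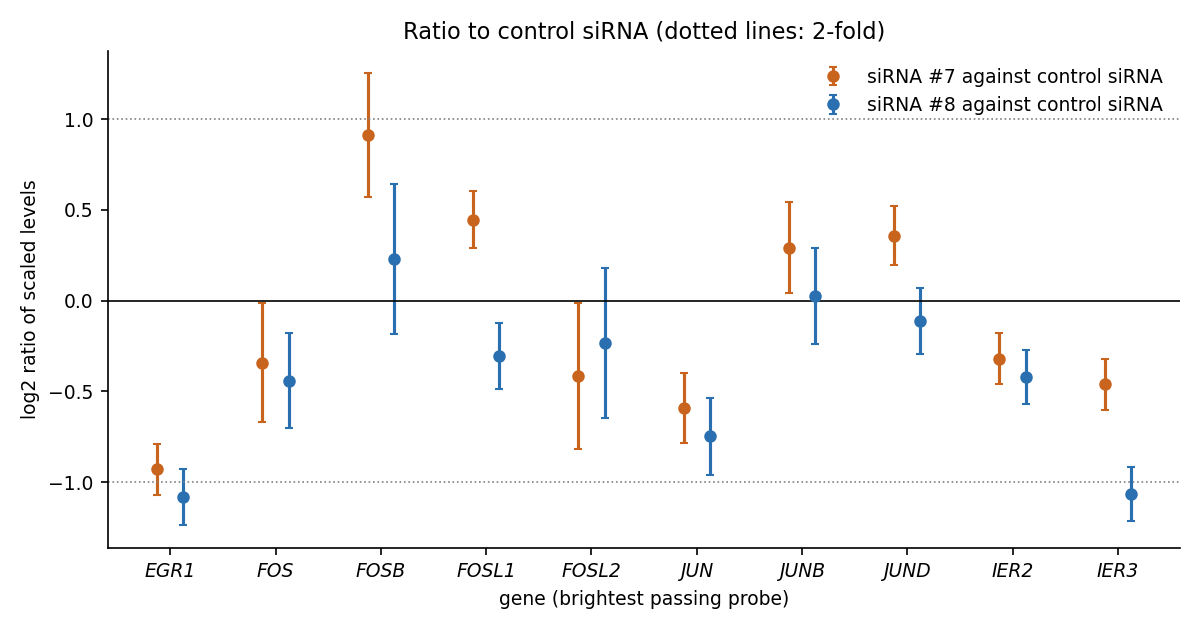
Log2 ratio of the scaled level to control siRNA (y axis) for each of the 10 genes (x axis), with siRNA #7 in orange and siRNA #8 in blue. Bars are the spot-to-spot SD of the ratio from 1 array per condition and dotted lines mark 2-fold. *EGR1* lies near or past the lower 2-fold line with both siRNAs, at -0.93 and -1.08, and *FOSB* with siRNA #7 is the highest point at 0.91.

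*EGR1* encodes a zinc finger transcription factor that ERK signaling induces through SRF. Its level was 23.1 under control siRNA, 12.1 under siRNA #7 and 10.9 under siRNA #8, from deposited intensities of 1220, 511 and 467. The control array was the high one, and both siRNA arrays lay at about the same lower level. Against control siRNA this was a log2 ratio of -0.93 ± 0.14 with siRNA #7, or 1.90-fold lower, and one of -1.08 ± 0.16 with siRNA #8, or 2.12-fold lower. Of the 12031 genes, the ratio of *EGR1* lay at percentile 2.08 with siRNA #7 and at percentile 2.33 with siRNA #8. Between the siRNAs *EGR1* differed by -0.15 ± 0.15, which is within the spot-to-spot SD, or by -0.31 with neighboring spots removed. The ratio to control ranged from -1.25 to -0.81 with siRNA #7 and from -1.32 to -1.03 with siRNA #8 over 10 other ways of processing the arrays.

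*JUN*, the AP-1 subunit that the JNK kinases phosphorylate and that acts on its own promoter, had levels of 2.06 under control siRNA, 1.37 under siRNA #7 and 1.23 under siRNA #8. As for *EGR1*, the control array was the high one. Relative to control it was at -0.59 ± 0.19 (siRNA #7) and -0.75 ± 0.21 (siRNA #8) on the log2 scale, at percentiles 6.85 and 6.08 of all genes. The spots around the *JUN* probe also differed between the arrays, with median log2 ratios of -0.32 and -0.37 over 17 neighbors. With the deviation of the neighbors removed, *JUN* was at -0.27 with siRNA #7 and -0.38 with siRNA #8, and with another background correction (normexp) at -0.36 and -0.38. The direction of *JUN* did not turn in any of the 10 settings, and its ratio ranged from -0.92 to -0.27 for siRNA #7 and from -0.99 to -0.38 for siRNA #8. Some of these settings could not turn it, as the other filters and the mean of the passing probes returned the reported ratio of its 1 probe.

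*JUNB* and *JUND* are the other two JUN subunits, and JUNB is known to restrain growth in several cell types. *JUNB* had levels of 1.02 under control siRNA, 1.25 under siRNA #7 and 1.03 under siRNA #8. Relative to control, *JUNB* was at 0.29 ± 0.25 with siRNA #7, a ratio that became -0.03 when the arrays were scaled on the E1A spike-in controls. With siRNA #8 it was 0.03 ± 0.26, within the spot-to-spot SD, and -0.21 on the spike-in scale. *JUND*, which many cells express at rest, had levels of 2.55 under control siRNA, 3.27 under siRNA #7 and 2.36 under siRNA #8, so that the siRNA #7 array was the high one. Its log2 ratio was 0.36 ± 0.16 with siRNA #7 and -0.11 ± 0.18 with siRNA #8. On the spike-in scale the first of these was 0.034, and after normexp 0.099, both within the spot-to-spot SD.

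*FOS*, the founding FOS subunit and an SRF target, had levels of 1.12 under control siRNA, 0.881 under siRNA #7 and 0.823 under siRNA #8. The order of the arrays was that of *EGR1*, with smaller differences. As log2 ratios, *FOS* was at -0.34 ± 0.33 with siRNA #7 and -0.44 ± 0.26 with siRNA #8, both within 2 spot-to-spot SD. After normexp it was -0.21 and -0.22. The *FOS* spot was dim, and the spot-to-spot SD is larger for dim spots.

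*FOSB* encodes a subunit that is induced like *FOS* and leaves long-lived splice forms in some cells. Its levels were 0.535 under control siRNA, 1.01 under siRNA #7 and 0.628 under siRNA #8, so the siRNA #7 array alone was high. On the log2 scale the ratio to control was 0.91 ± 0.34 with siRNA #7, at percentile 97.4 of all genes, and 0.23 ± 0.41 with siRNA #8. The *FOSB* probe had deposited intensities of 28.3, 42.4 and 26.9, and after normexp the ratio with siRNA #7 was 0.31. On the spike-in scale *FOSB* with siRNA #8 was at -0.0083, so its direction there depends on the scaling.

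*FOSL1*, which encodes FRA1, a subunit that ERK activity stabilizes and that is often abundant in invasive carcinoma cells, had levels of 3.89 under control siRNA, 5.30 under siRNA #7 and 3.15 under siRNA #8. It was higher than control with siRNA #7, by a log2 ratio of 0.45 ± 0.16, and lower with siRNA #8, at -0.30 ± 0.18. The spots around its probe had median log2 ratios of 0.34 and 0.32, and with these removed *FOSL1* was at 0.11 with siRNA #7 and -0.62 with siRNA #8. *FOSL2*, which encodes FRA2, was the dimmest of the set in deposited intensity, at 15.3, 9.16 and 10.6. Its levels were 0.290 under control siRNA, 0.218 under siRNA #7 and 0.247 under siRNA #8. The *FOSL2* ratio was -0.41 ± 0.40 with siRNA #7, where normexp gave 0.05, and -0.23 ± 0.41 with siRNA #8, so neither was resolved from the spot-to-spot error.

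*IER2* and *IER3* are immediate early genes outside the AP-1 family. IER2 is a nuclear protein of the early growth factor response, and IER3 is known as a modulator of apoptosis that ERK phosphorylates. The *IER2* level was 317 under control siRNA, 254 under siRNA #7 and 237 under siRNA #8, again with the control array high. Its log2 ratio was -0.32 ± 0.14 with siRNA #7, or -0.10 with neighboring spots removed, and -0.42 ± 0.15 with siRNA #8.

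*IER3* was the only gene of the set with more than 1 probe. The brighter *IER3* probe had levels of 204 under control siRNA, 148 under siRNA #7 and 97.7 under siRNA #8, and the other had 57.7, 37.0 and 24.5. On both probes the arrays stood in the same order, with control siRNA highest and siRNA #8 lowest. The log2 ratios of the brighter probe were -0.46 ± 0.14 with siRNA #7 and -1.06 ± 0.15 with siRNA #8, while the other probe was at -0.64 ± 0.14 and -1.23 ± 0.15. With siRNA #8 the brighter probe was 2.09-fold lower, at percentile 2.49 of all genes, and with siRNA #7 it was at percentile 11.0.

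**Figure D2:**
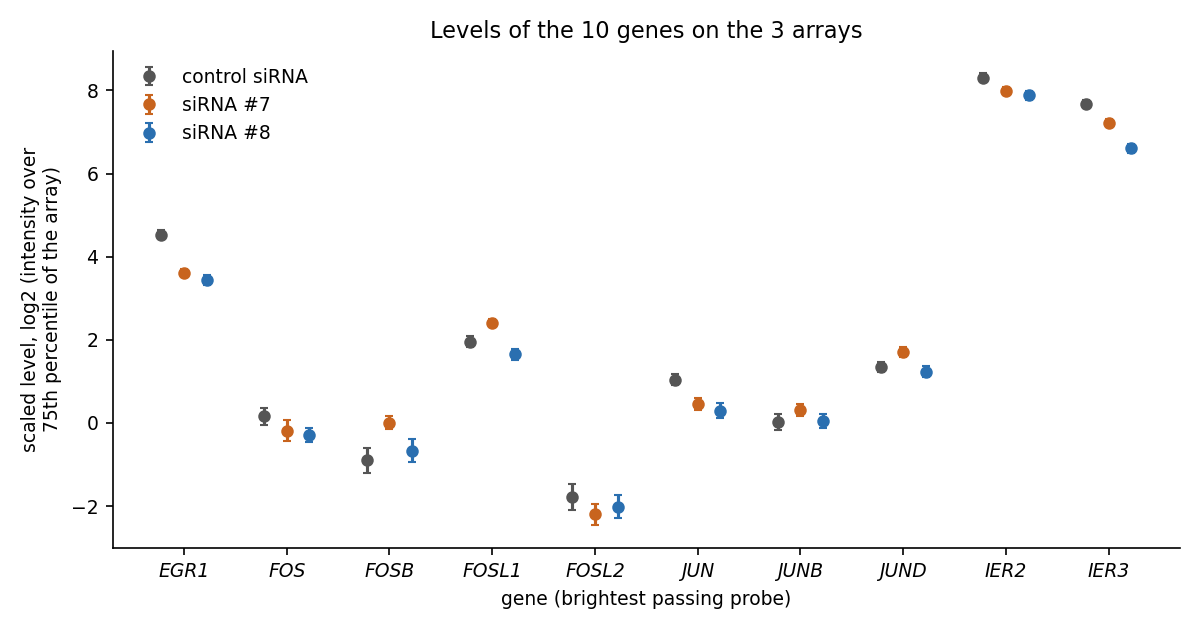
Scaled level of each of the 10 genes (log2 of the intensity over the 75th percentile of the array, y axis) on the control siRNA (grey), siRNA #7 (orange) and siRNA #8 (blue) arrays, 1 array each, with bars for the spot-to-spot SD. Points are to be compared within a gene. The grey point is highest for *EGR1*, *FOS*, *FOSL2*, *JUN*, *IER2* and *IER3*, and the orange point is highest for *FOSB*, *FOSL1*, *JUNB* and *JUND*.

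The siRNAs were also set against each other without the control array. With siRNA #8, 9 of the 10 genes were lower than with siRNA #7, all but *FOSL2*, beside 51.1% of all genes, and the median log2 ratio was -0.21, beside -0.011 over all genes. None was at least 2-fold lower, beside 3.35% of all genes, and none at least 2-fold higher, beside 2.29%. At 1.5-fold *FOSL1*, *FOSB* and *IER3* were lower, which is 3 of 10 beside 11.6% of all genes, and 0 were higher, beside 8.89%. Their log2 ratios were -0.75 ± 0.17 for *FOSL1*, -0.68 ± 0.32 for *FOSB* and -0.60 ± 0.15 for *IER3*. Each fell short of 1.5-fold in some setting, with -0.54 for *FOSL1* and -0.15 for *FOSB* after normexp and -0.52 for *IER3* on the spike-in scale. *JUND* was at -0.47 ± 0.17, or -0.23 after normexp, and as reported these 4 genes had ratios beyond 2 spot-to-spot SD, as did 37.2% of all genes. *EGR1*, *FOS*, *FOSL2*, *JUN* and *IER2* differed between the siRNAs by no more than the spot-to-spot SD, between -0.16 and 0.18. With neighboring spots removed, however, *EGR1* was at -0.31 and *IER2* at -0.36, about 2 or more times that SD.

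**Figure D3:**
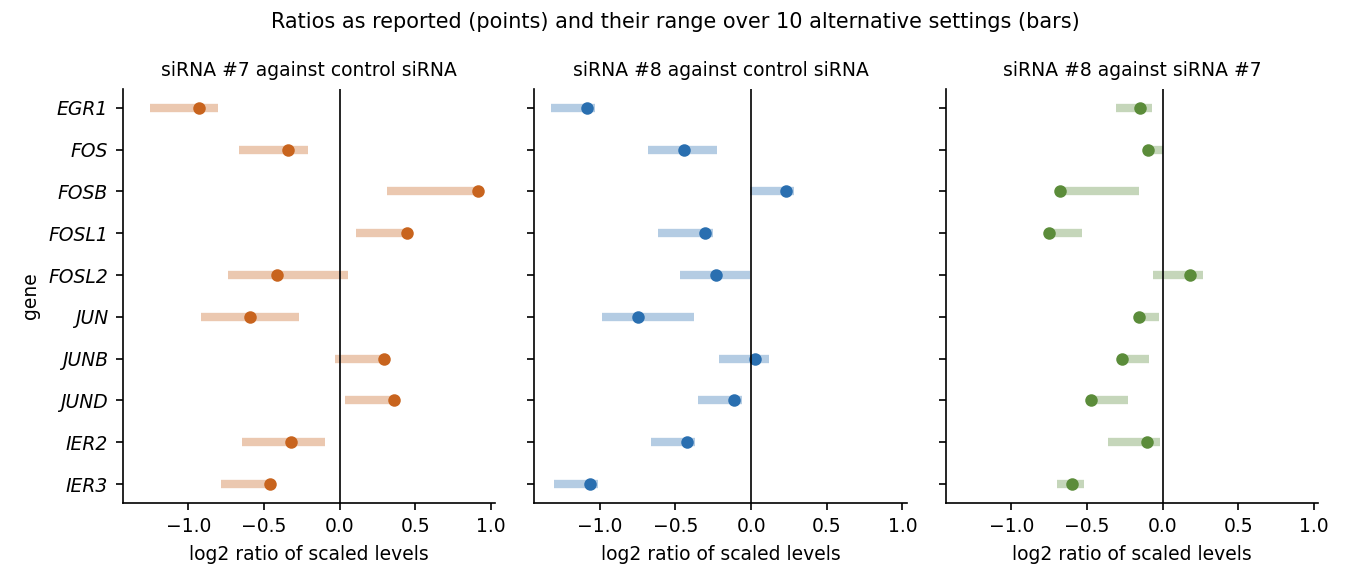
Log2 ratio of each gene as reported (points) and the range over 10 alternative settings (bars), for siRNA #7 against control siRNA, siRNA #8 against control siRNA and siRNA #8 against siRNA #7. The bars of *EGR1*, *IER2*, *IER3* and *JUN* stay below 0 in all 3 panels, and the bars of *FOSL2* and *JUNB* cross 0 with siRNA #7. The 10 settings include some, such as the other filters, that left these ratios as reported.

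The other genes of this pathway were described from lists chosen by known role, also with earlier results of these data known. Of all genes, 48.5% were lower with siRNA #7, 49.2% with siRNA #8 and 51.1% with siRNA #8 against siRNA #7. The all-gene medians were 0.014, 0.0072 and -0.011. Of 12 AP-1 bZIP partners, proteins of the ATF, BATF and MAF families that can pair with FOS or JUN, 10 had a passing probe, and *BATF* and *MAF* were well above background on none of the 3 arrays. With siRNA #7, 5 were lower and 5 higher, with a median log2 ratio of 0.016, which was below 0 in 4 of 10 settings, and with siRNA #8, 6 were lower and 4 higher, with a median of -0.28. Past 2-fold with siRNA #7 were *JDP2* and *BATF2*, both higher, which is 2 of 10 beside 2.04% of all genes. For siRNA #8, 1 of 10 was at least 2-fold higher, *BATF2*, beside 1.95% of all genes, and 0 were lower, beside 3.03%. Between the siRNAs, 7 were lower with siRNA #8 and 3 higher, with a median of -0.19. Of these, 1 was at least 2-fold lower, *JDP2*, beside 3.35% of all genes, and 1 at least 2-fold higher, beside 2.29%. *JDP2*, a partner that represses AP-1, is printed 10 times, and its level was 6.89 under control siRNA, 14.0 under siRNA #7 and 5.41 under siRNA #8. Its log2 ratio to control was 1.03 ± 0.05 under siRNA #7 and -0.35 ± 0.06 under siRNA #8, and thus -1.37 ± 0.05 between the siRNAs. The first of these was as low as 0.70 in another setting, short of 2-fold, and the last stayed past 2-fold in all 10. *BATF2* was higher with both siRNAs, at 1.28 ± 0.40 and 1.65 ± 0.41, from a dim spot, and in other settings as low as 0.40 and 0.49, short of 2-fold.

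Of 40 other immediate early genes, 33 passed. *EGR3*, *NR4A1*, *CCN2* and *HES1* were called above background on no array, and *EGR2*, *EGR4* and *NFKBIZ* were well above it on 1 or 2 arrays only. With siRNA #7, 8 of the 33 were lower and 25 higher than control, beside 48.5% of all genes lower. The median log2 ratio was 0.16, which became -0.17 on the spike-in scale. With siRNA #8, 20 were lower and 13 higher, beside 49.2% of all genes lower, with a median of -0.11. With siRNA #8 against siRNA #7, 23 were lower and 10 higher, beside 51.1% of all genes lower, with a median of -0.24. At least 2-fold lower than control with siRNA #7 was 1 of the 33, *CSRNP1*, beside 1.72% of all genes, and 0 were higher, beside 2.04%. For siRNA #8, 1 was at least 2-fold lower, *DUSP5*, beside 3.03%, and 1 higher, *BTG2*, beside 1.95%. *CSRNP1*, an AXIN1-induced nuclear factor, was at -1.25 ± 0.33 with siRNA #7 and -0.59 ± 0.34 with siRNA #8. In other settings *CSRNP1* came as near to 0 as -0.43 and -0.19, short of 2-fold, and its other probe, which did not pass, was at -0.31 and 0.52. *DUSP5*, a nuclear phosphatase that acts on ERK, was at -0.04 ± 0.16 with siRNA #7 and -1.31 ± 0.18 with siRNA #8. *BTG2*, an antiproliferative gene that p53 induces, was at 0.16 ± 0.15 with siRNA #7, or -0.17 on the spike-in scale, and at 1.24 ± 0.16 with siRNA #8, with levels of 10.5, 11.7 and 24.8 on the control siRNA, siRNA #7 and siRNA #8 arrays.

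Between the siRNAs, 5 of these 33 genes were at least 2-fold lower with siRNA #8, beside 3.35% of all genes, and 1 was at least 2-fold higher, *BTG2*, beside 2.29%. Besides *DUSP5*, the lower ones were *RHOB*, *PLK2*, *CCN1* and *KLF2*, named after their values were seen. *RHOB*, a small GTPase gene, was at 0.79 ± 0.15 with siRNA #7 and -0.44 ± 0.18 with siRNA #8. *PLK2*, a stress-induced polo-like kinase gene, was at 0.64 ± 0.16 and -0.49 ± 0.18. *CCN1*, which encodes a matricellular protein, was at 0.17 ± 0.16 and -0.90 ± 0.18, and *KLF2*, a Krüppel-like factor gene, was at 0.30 ± 0.04 and -0.76 ± 0.05. With siRNA #7 the direction turned on the spike-in scale for *CCN1*, to -0.16, and for *KLF2*, to -0.02, and that of *CCN1* also turned after normexp. Between the siRNAs *RHOB* stayed past 2-fold in all 10 settings, with -1.02 as its smallest difference, while the smallest was -0.70 for *CCN1*, -0.88 for *PLK2*, -0.96 for *DUSP5*, -0.96 for *KLF2* and 0.97 for *BTG2*, all short of 2-fold.

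All 11 genes of SRF, its partners and the CREB group passed. None was past 2-fold in any comparison, beside 1.72% to 3.35% of all genes in a given comparison and direction. With siRNA #7, 9 were lower and 2 higher, beside 48.5% of all genes lower, with a median of -0.17. With siRNA #8, 4 were lower and 7 higher, beside 49.2% of all genes lower. The median with siRNA #8 was 0.055, which was below 0 with the median of each array, the spike-in scale and normexp. Between the siRNAs, 3 were lower with siRNA #8 and 8 higher, beside 51.1% of all genes lower, with a median of 0.22. *ELK1*, a ternary complex factor that ERK phosphorylates, was the lowest by the mean of both ratios, at -0.54 ± 0.33 with siRNA #7 and -0.70 ± 0.34 with siRNA #8. *SRF* itself was the highest, at 0.50 ± 0.40 and 0.10 ± 0.41, the second of which was -0.14 on the spike-in scale.

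All 14 kinase genes of the ERK, JNK and p38 cascades passed. By the brightest probe none was past 2-fold, beside 1.72% to 3.35% of all genes in a given comparison and direction. With siRNA #7, 10 were lower and 4 higher, beside 48.5% of all genes lower, with a median of -0.053. With siRNA #8, 9 were lower and 5 higher, beside 49.2% of all genes lower, with a median of -0.17. Between the siRNAs, 8 were lower with siRNA #8 and 6 higher, beside 51.1% of all genes lower. That median was -0.11, and it was above 0 with the mean of the passing probes and with neighboring spots removed. *MAP2K2*, which encodes MEK2, was at 0.43 ± 0.15 and 0.51 ± 0.17, and as low as 0.037 and 0.27 in other settings. *MAPK9*, which encodes JNK2, was at -0.58 ± 0.33 and -0.91 ± 0.34 on its brighter probe. A second passing *MAPK9* probe was at -0.02 with siRNA #7 and 2.24 with siRNA #8, so the probes disagree in direction with siRNA #8 and the level of *MAPK9* is uncertain.

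Among 8 genes that restrain EGR1 or AP-1, all passed. As reported, none was past 2-fold, beside 1.72% to 3.35% of all genes in a given comparison and direction. With siRNA #7, 5 were lower and 3 higher, beside 48.5% of all genes lower. The median was -0.088, which was above 0 in 2 of the 10 settings. With siRNA #8, 5 were lower and 3 higher, beside 49.2% of all genes lower. Here the median was -0.027, above 0 in 3 settings. Between the siRNAs, 2 were lower with siRNA #8 and 6 higher, beside 51.1% of all genes lower, with a median of 0.20. *NAB2*, which encodes a corepressor that binds EGR1 and is itself an EGR1 target, had levels of 55.7 under control siRNA, 28.4 under siRNA #7 and 37.8 under siRNA #8. The control array was high, as for *EGR1*. The *NAB2* ratio was -0.97 ± 0.14 for siRNA #7 and -0.56 ± 0.15 for siRNA #8. Over the other settings it ranged from -1.29, which is past 2-fold, to -0.78 for siRNA #7, and from -0.80 to -0.51 for siRNA #8. *COP1*, which encodes a ubiquitin ligase that targets JUN, was at 0.36 ± 0.16 and 0.42 ± 0.18, and as low as 0.031 and 0.054 in other settings.

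Of 24 known AP-1 targets, 17 passed. *MMP1*, *MMP3*, *MMP10*, *CXCL8*, *GJA1* and *ITGA2* were called above background on no array, and *MMP13* was well above it on the siRNA #7 array only. With siRNA #7, 8 of the 17 were lower and 9 higher, beside 48.5% of all genes lower. The median was 0.043, which was below 0 in 5 of 10 settings. With siRNA #8, 9 were lower and 8 higher, beside 49.2% of all genes lower, with a median of -0.24. Between the siRNAs, 11 were lower with siRNA #8 and 6 higher, beside 51.1% of all genes lower, with a median of -0.30. At least 2-fold lower than control with siRNA #8 were *CCND1* and *SPHK1*, 2 of 17 beside 3.03% of all genes, and 0 were higher, beside 1.95%. At least 2-fold higher with siRNA #7 was *MMP7*, 1 of 17 beside 2.04%, and 0 were lower, beside 1.72%. *CCND1*, which encodes cyclin D1 and is printed 10 times, had levels of 14.7 under control siRNA, 17.0 under siRNA #7 and 6.95 under siRNA #8, so the siRNA #8 array alone was low. Its ratio was 0.21 ± 0.05 with siRNA #7, or -0.12 on the spike-in scale and -0.01 after normexp, and -1.08 ± 0.06 with siRNA #8. *SPHK1*, a sphingosine kinase gene, was at -0.13 ± 0.15 and -1.24 ± 0.18, and *MMP7*, the matrilysin gene of epithelial tumors, was at 1.12 ± 0.40 and 0.40 ± 0.41, from a dim spot. The *MMP7* ratios were as low as 0.34 and 0.096 in other settings, so that the 2-fold call was lost, and *SPHK1* with siRNA #8 reached only -0.91 in one of them. With siRNA #8 against siRNA #7, *CCND1*, *SPHK1* and *EZR* were at least 2-fold lower, which is 3 of 17 beside 3.35% of all genes, and 0 were at least 2-fold higher, beside 2.29%. Of these, *CCND1* stayed past 2-fold in all 10 settings, and the smallest differences were -0.78 for *SPHK1* and -0.97 for *EZR*. *EZR*, which encodes ezrin and is named after its values were seen, was at 0.50 ± 0.14 and -0.72 ± 0.15 against control.

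**Figure D4:**
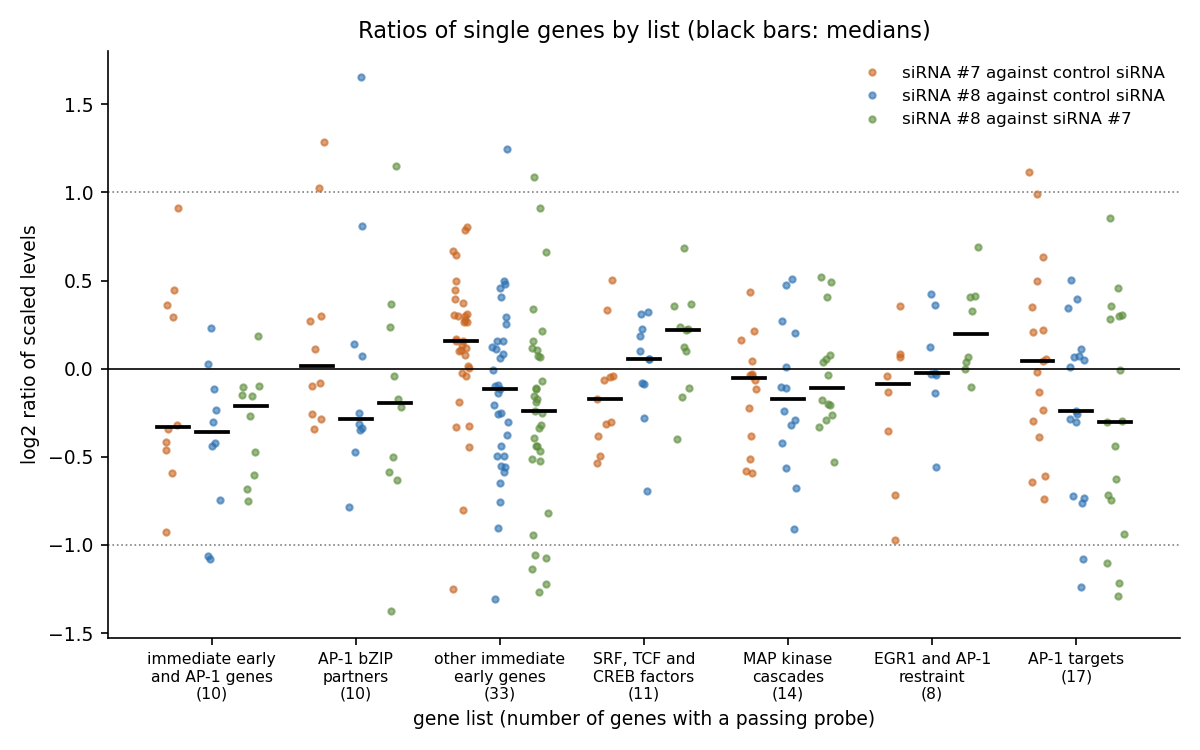
Log2 ratios of single genes (points) in the set of 10 and in the other lists, for siRNA #7 (orange) and siRNA #8 (blue) against control siRNA and for siRNA #8 against siRNA #7 (green). Black bars are medians, dotted lines mark 2-fold and the number of genes with a passing probe is in parentheses. The medians of the 10 genes lie below 0 in all 3 comparisons, at -0.33, -0.36 and -0.21.

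The gene of the set with the largest mean difference from control was *EGR1*. Among 12021 genes outside the set, the 3 nearest to it in the pair of log2 ratios were *SYNGR4*, at -0.87 and -1.08, *GABPA*, at -0.91 and -1.01, and *MON1B*, at -0.996 and -1.05. Their distances from *EGR1* were 0.060, 0.071 and 0.072 on the log2 scale, each smaller than the spot-to-spot SD of a ratio, and rest on 3 arrays.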

How the data were processed

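Per the labels, HCT116 RNA was labeled with Cy3 and hybridized to 1 array per condition. The authors extracted the spot intensities from the array images with Agilent Feature Extraction 11.5.1.1. The deposited intensity of each spot has its background subtracted and is not scaled between arrays. The authors also deposited a log2 table of the same arrays, shifted to the 75th percentile and centred per probe, used here only as an alternative. The submitters' file names number the siRNAs differently from the labels, which were followed.

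Outlier-flagged spots were removed (313 to 413 per array), spots of a probe were averaged, and each array was divided by the 75th percentile over its gene probes before log2 was taken. To pass, a probe had to be well above background on all 3 arrays and reach the 20th percentile on 2 or more, which left 18121 probes. Accessions were matched to RefSeq names (30000 of 50593 probes), and the design of the array used an older build, so gene coordinates are not given beside it. The brightest passing probe stood for a gene. Spot-to-spot SD came from probes printed 10 times, in 6 ranges of signal. Python 3.11.15, numpy 2.4.6, pandas 2.3.3 and limma 3.58.1 in R 4.3.3 were used, and the steps were tested on simulated data.

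The alternatives were the median of each array, quantile normalization, the E1A spike-in controls, the percentile over detected probes, normexp with an offset of 50 on median signals, the deposited log2 table, 2 other filters, the mean of the passing probes, removal of the median deviation of neighboring spots within 3 rows and columns, a 1.5-fold threshold, and limma with both siRNA arrays as 1 group. All 10 genes of the set are named, with, in each other list, the genes past 2-fold with either siRNA (the 2 highest and 2 lowest where over 4) or, where none was, the highest and lowest by mean ratio, and the 3 genes nearest to *EGR1*. The set and the lists were chosen with earlier results of these data known. One gene of the lists is not reported here by name.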

Additional observations from a re-analysis of the deposited data

Results flagged for a closer look

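*FOSL1* and *JUND* were above control siRNA on the siRNA #7 array and below it on the siRNA #8 array. The log2 ratio of siRNA #8 against siRNA #7 was -0.75 ± 0.17 for *FOSL1* and -0.47 ± 0.17 for *JUND*, where the error is the spot-to-spot SD. Each siRNA had 1 array, so the difference between them was not tested. The median of the spots around the *FOSL1* probe differed from control by 0.34 with siRNA #7 and 0.32 with siRNA #8, and around the *JUND* probe by 0.05 and 0.08. With siRNA #7 *FOSL1* was as low as 0.11 and *JUND* as low as 0.034 in other settings, and after normexp the ratio between the siRNAs was -0.54 for *FOSL1* and -0.23 for *JUND*.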

How the results depend on the processing

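The direction of 24 of the 30 ratios of the set (10 genes in 3 comparisons) was the same in all 10 settings. The others were *FOSL2* and *JUNB* with siRNA #7, *FOSB* and *JUNB* with siRNA #8, and *FOS* and *FOSL2* between the siRNAs. Not all of the 10 settings could turn a direction. The 2 other filters left each ratio of the set as reported, and so did the mean of the passing probes, except for *IER3*. The deposited log2 table is shifted to the same percentile as the levels here. The median ratio of the set with siRNA #7 was -0.66 on the E1A spike-in scale and -0.078 after normexp, in place of -0.33, and with siRNA #8 it was -0.60 on the spike-in scale, in place of -0.36. That scale moved the median of all genes by -0.32 with siRNA #7 and -0.24 with siRNA #8. With siRNA #7, 1 gene of the set was at least 2-fold lower with the median of each array and 1 on the spike-in scale (*EGR1*), in place of 0, and at 1.5-fold 2 were lower and 1 higher. Between the siRNAs 3 were lower at 1.5-fold, in place of 0. With no filter on dim probes the median of all genes shifted by 0.13 and 0.14. With both siRNA arrays taken as 1 group of 2 against the control array, limma called 1 of 18121 probes at an adjusted p under 0.05, with 659 at an unadjusted p under 0.05, and 0 genes of the set, where *EGR1* had a limma p of 0.0177 and an adjusted p of 0.9998. The spread in that fit comes only from the difference between the siRNAs, with 1 control array, so few calls are to be had and their lack says nothing of the size of a difference. No paired analysis was possible because there is 1 array per condition, and leaving out an array would leave no comparison. The number of arrays limits the precision, and the dim spots of *FOS*, *FOSB*, *FOSL2* and *JUNB* have the largest spot-to-spot error.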
